A study of Mus musculus with 4 samples.

Results

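The Nogo receptor set holds 5 genes of the 23337 gene symbols counted in each sample. They are the receptor genes Rtn4r, Rtn4rl1 and Rtn4rl2, the ligand gene Rtn4 and the co-receptor gene Lingo1. They were taken by symbol, and all 5 symbols were found. The set was put forward because Rtn4rl1 was known to lie among the lower genes with the smallest p when mutant cells were compared with control cells. The genotype values of the 5 genes are therefore given as a description. No p is given for them, and calls past the threshold are reported as counts only.

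The transcriptome of sorted Tomato-positive olfactory epithelial cells was profiled by RNA-seq in 4 adult mice on a mixed background, with 1 mouse per sample. Mutant cells were Lmnb1-/- and came from 2 K5Cre;Lmnb1 fl/fl mice, while control cells were Lmnb1+/- and came from 2 K5Cre;Lmnb1 fl/+ mice. Lmnb1 encodes lamin B1, a protein of the nuclear lamina. No sample was wild type, since the controls had also lost 1 copy of Lmnb1. All mice carried Cre under the keratin 5 promoter, which is active in horizontal basal cells, the reserve stem cells of this tissue, and a Cre-dependent tdTomato reporter. Sorted cells were thus horizontal basal cells together with the neurons, progenitors and supporting cells they had produced. Methimazole, which strips the olfactory epithelium, had been given to all mice as 2 injections of 50 mg/kg, the last 4 weeks earlier. Samples fell into 2 experimental groups of 1 mutant and 1 control littermate each. By the stated design, animals of the 2 experimental groups differed in parents, age, sex and treatment, although dose and recovery time were the same. Sample preparation and sequencing are also described as the same within a group. These sources of difference between the groups cannot be told apart. In the sample names the number is that of the experimental group, so control 1 and mutant 1 are littermates.

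Nogo is the reticulon protein encoded by Rtn4. It lies mostly in the endoplasmic reticulum, and in myelin of the central nervous system it is known as an inhibitor of axon growth. Its receptor NgR1 (Rtn4r) and the relatives NgR2 (Rtn4rl2) and NgR3 (Rtn4rl1) are leucine-rich repeat proteins held on the cell surface by a lipid anchor. Having no cytoplasmic part, NgR1 passes its signal through partners, among them LINGO-1 (Lingo1) and the p75 neurotrophin receptor, to RhoA and its kinases. Olfactory sensory neurons are replaced throughout life, and each new neuron sends an axon to the olfactory bulb.

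The 3 receptor genes are related in sequence, so it was first asked whether reads could have been assigned to the wrong relative. Coding sequences (GENCODE M21, the mm10 genome build) shared 62.7% of aligned bases between Rtn4rl1 and Rtn4r, 63.5% between Rtn4rl1 and Rtn4rl2, and 62.3% between Rtn4r and Rtn4rl2. The longest identical run was 13 bases for Rtn4rl1 and Rtn4r, 14 bases for Rtn4rl1 and Rtn4rl2, and 15 bases for Rtn4r and Rtn4rl2. Each run is printed below in capitals within a stretch of 50 bases, the length of 1 read, to show how much of a read remains different around it.
Rtn4rl1, chr11:75265162-75265211, plus strand: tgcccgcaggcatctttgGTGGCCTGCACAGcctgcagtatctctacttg
Rtn4r, chr16:18151287-18151336, plus strand: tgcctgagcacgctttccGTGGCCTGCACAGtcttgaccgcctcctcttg
Rtn4rl1, chr11:75265410-75265459, plus strand: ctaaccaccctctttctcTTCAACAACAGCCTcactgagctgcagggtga
Rtn4rl2, chr2:84872475-84872524, minus strand: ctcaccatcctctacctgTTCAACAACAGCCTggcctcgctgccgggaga
Rtn4r, chr16:18151396-18151445, plus strand: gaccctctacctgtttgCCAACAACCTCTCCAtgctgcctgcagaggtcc
Rtn4rl2, chr2:84880597-84880646, minus strand: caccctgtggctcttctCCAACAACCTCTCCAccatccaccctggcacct
All 6 stretches are coding and each lies within 1 exon. Of the distinct 50-base words of their transcripts, none of the 3476 of Rtn4rl1, the 1889 of Rtn4r and the 1457 of Rtn4rl2 occurred in a transcript of another gene on either strand. Lingo1 shared 13 of 4801 such words (0.271%) with other genes. Rtn4 shared 1235 of 7266 (17%), all with Eml6, whose exons overlap those of Rtn4 on the opposite strand. The strand setting of the read counting is not given in the sources used here, so reads from the overlap may be missing from Rtn4 or may include Eml6.

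Reads assigned to genes numbered 14833396 to 23704638 per sample, and levels are given as CPM, counts scaled to that total. The detection floor of 3 counts equals 0.127 CPM in control 1 and 0.202 CPM in mutant 2. Mutant 1 stood apart in composition, with 39.41% of uniquely aligned reads outside genes compared with 22.08 to 24.88% in the other samples, and with 1603 genes at 0 counts compared with 5173 to 6053. The targeted gene Lmnb1 had 20.1 and 18.5 CPM in controls 1 and 2 and 14.7 and 10 CPM in mutants 1 and 2. Its count spans the whole gene, so the deleted exon 2 cannot be seen in it. Over the 14 markers of mature olfactory neurons, which were defined by Omp, the summed level was 21381 and 9443 CPM in controls 1 and 2 and 12314 and 2840 CPM in mutants 1 and 2. Defining markers of horizontal basal and supporting cells (Krt5 and Cyp2g1) were also abundant in every sample, at 617 to 1469 CPM and 1281 to 5079 CPM.

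Rtn4rl1 supplied nearly all receptor reads. Its share of the reads of the 3 receptor genes was 99.62% (95% Wilson interval 99.31 to 99.79) of 2864 in control 1, and 99.92% (99.54 to 99.99) of 1232 in control 2. In the mutants the share was 98.7% (97.95 to 99.17) of 1381 reads and 98.25% (95.96 to 99.25) of 285 reads. These intervals cover counting error only. The plot of all 5 genes by sample shows Rtn4rl1 above Rtn4r and Rtn4rl2 in every sample on a scale corrected for gene length.

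**Figure D1:**
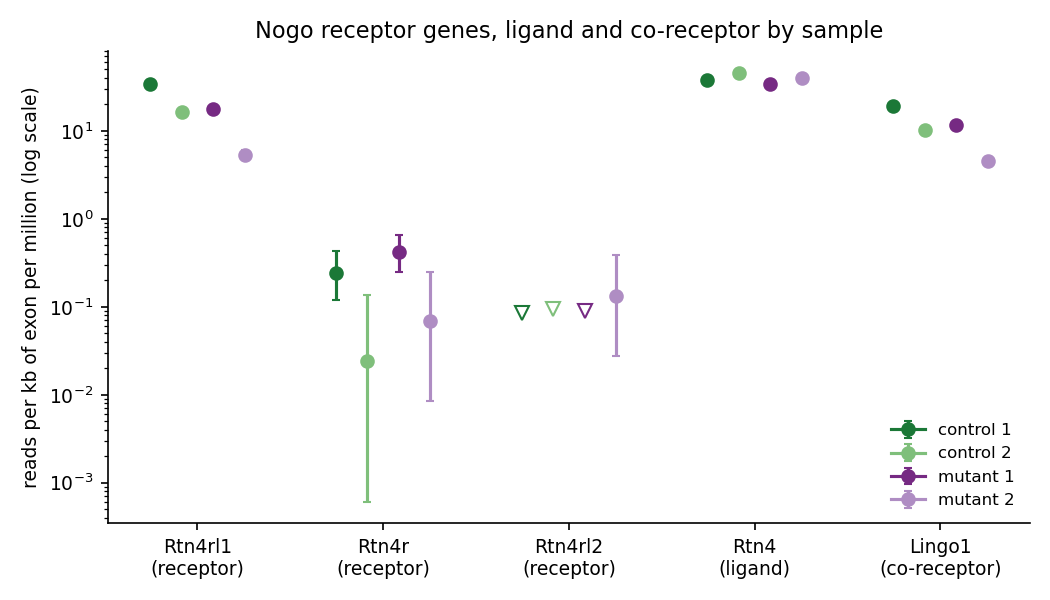
Level of each Nogo receptor, ligand and co-receptor gene in the 4 samples, in RPKM (CPM per kb of exon) on a log axis. Error bars are 95% exact Poisson intervals, and open triangles mark the floor of 3 counts where the count was 0. Rtn4rl1, Rtn4 and Lingo1 lie between 4.55 and 45.3, while Rtn4r and Rtn4rl2 stay at or below 0.419.

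The receptor gene Rtn4rl1 lies on chr11:75193783-75267769, plus strand (mm10), with 3525 bp of exon. The controls had 2853 and 1231 counts (120 and 57.6 CPM) and the mutants 1363 and 280 counts (61.5 and 18.9 CPM), in the order of experimental groups 1 and 2. Control 1 was highest and mutant 2 lowest, and the genotypes overlapped because mutant 1 lay above control 2. The means were 89 ± 44.4 CPM in controls and 40.2 ± 30.2 CPM in mutants (SD, n = 2). Within each experimental group the mutant was below its littermate control, at 0.48 of the control level in group 1 and 0.325 in group 2. With experimental group in the model, the log2 fold change of mutant over control was -1.33 (SE 0.19), which is 39.8% of the control level. On the length-corrected scale, Rtn4rl1 lay at the 90.2 percentile of 15258 tested genes with a length in control 1, the 79.3 in control 2, the 80 in mutant 1 and the 49.1 in mutant 2. In bulk samples, fewer cells of a type and less RNA per cell cannot be told apart.

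Rtn4r, on chr16:18127642-18152408, plus strand (1938 bp of exon), encodes the receptor for which the family is named. In the controls it had 11 counts, or 0.464 CPM (95% exact Poisson interval 0.232 to 0.83), and 1 count, or 0.0468 CPM (0.00118 to 0.261). In the mutants it had 18 counts, or 0.813 CPM (0.482 to 1.28), and 2 counts, or 0.135 CPM (0.0163 to 0.487). Both samples of experimental group 1 were above the floor of 3 counts and both of group 2 were below it. No sample reached 1 CPM, so Rtn4r did not enter the tests. The ratio of mutant over control was 1.75 in group 1 (95% counting interval 0.783 to 4.1) and 2.88 in group 2 (0.15 to 170), and both intervals span 1. In mutant 1, genes without counts in the other samples held a median of 1.82 counts per kb of exon. At that rate Rtn4r would hold 3.53 counts in mutant 1, compared with the 18 observed.

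Rtn4rl2, on chr2:84871924-84886710, minus strand (1506 bp of exon), encodes NgR2, which binds the myelin-associated glycoprotein. It had 0 counts in control 1, control 2 and mutant 1, and 3 counts in mutant 2, which is 0.202 CPM (95% exact Poisson interval 0.0417 to 0.591). A count of 0 allowed up to 0.156, 0.173 and 0.167 CPM in these 3 samples by the same interval. Rtn4rl2 was therefore not detected above the floor in any sample, it did not enter the tests, and no fold is given.

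The ligand gene Rtn4, on chr11:29692947-29744331, plus strand (6991 bp of exon), was the most abundant of the 5 genes in every sample on the length-corrected scale. Counts were 6229 and 6768 in controls 1 and 2 (263 and 317 CPM) and 5303 and 4121 in mutants 1 and 2 (239 and 278 CPM). The genotypes overlapped, with mutant 2 above control 1. Means were 290 ± 38 CPM in controls and 259 ± 27.1 CPM in mutants (SD, n = 2), and the log2 fold change of mutant over control was -0.22 (SE 0.22). The mutant was at 0.854 of its control in group 1 and 0.866 in group 2. Rtn4 lay between the 90.5 and the 94 percentile of tested genes in every sample.

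Lingo1, on chr9:56618475-56796468, minus strand (4715 bp of exon), encodes a leucine-rich repeat transmembrane protein that joins the receptor complex. Counts were 2122 and 1025 in controls 1 and 2 (89.5 and 47.9 CPM) and 1198 and 318 in mutants 1 and 2 (54.1 and 21.4 CPM). As for Rtn4rl1, control 1 was highest, mutant 2 was lowest and mutant 1 lay above control 2. Means were 68.7 ± 29.4 CPM in controls and 37.8 ± 23.1 CPM in mutants (SD, n = 2). The mutant was at 0.567 of its control in group 1 and 0.443 in group 2. With experimental group in the model, the log2 fold change was -0.99 (SE 0.18), or 50.3% of the control level. Lingo1 lay at the 81.4, 67.4, 70.6 and 44.9 percentile of tested genes in control 1, control 2, mutant 1 and mutant 2.

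Of the 5 genes, 3 passed the filter on low counts. In the genotype contrast, Rtn4rl1 and Lingo1 were called lower, none of the 3 was called higher and Rtn4 was not called, where 4.3% of all 15438 tested genes were called lower and 1.28% higher. Because Rtn4rl1 was chosen with this contrast known, nothing is read from these calls or from their loss in other models. No member had both mutants below both controls in CPM, which held for 10.6% of tested genes. The calls rest on the littermate pairing. In a model without experimental group, 0 of the 3 genes passed by edgeR's likelihood-ratio test. Over all tested genes, that model called 0 lower and 6 higher, so the members do not stand out in it. At an unadjusted p under 0.05, 1 member was lower, where 189 genes were lower and 159 higher over all tested genes. Leaving out 1 library at a time in that model moved the log2 fold change between -2.27 and -0.57 for Rtn4rl1. The range was -1.71 to -0.40 for Lingo1 and -0.33 to -0.04 for Rtn4.

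The level per length placed Rtn4 above Rtn4rl1 and Rtn4rl1 above Lingo1 in every sample, but the distances between them differed. In RPKM, which is CPM per kb of exon, the ratio of Rtn4 to Rtn4rl1 was 1.1 and 2.77 in controls 1 and 2 and 1.96 and 7.42 in mutants 1 and 2. On this scale the 2 genes were nearest in control 1 and furthest apart in mutant 2. The ratio does not give transcript numbers. Length is that of all annotated exons of a gene together, Rtn4 has 10 annotated transcripts, and reads from its overlap with Eml6 may be missing or foreign. The ratio of Lingo1 to Rtn4rl1 moved less, from 0.556 and 0.623 in controls 1 and 2 to 0.657 and 0.849 in mutants 1 and 2.

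Experimental group, which the choice of the set did not use, was then compared in the same model, with 31.6% of tested genes called, 14% lower in group 2 and 17.7% higher. Of the 3 tested members, 2 were called. Each group holds 2 littermates, so p here compares 1 litter with another and does not measure the spread between litters. By edgeR's quasi-likelihood test the adjusted p was 0.000568 for Rtn4rl1 and 0.00092 for Lingo1. The values below are from the likelihood-ratio test. Rtn4rl1 was lower in group 2, and the log2 difference from group 1 was -1.34 (SE 0.19, edgeR adjusted p = 1.36e-10). The difference was -1.07 between the controls and -1.63 between the mutants. Lingo1 was also lower in group 2, by -1.08 (SE 0.18, edgeR adjusted p = 6.63e-08), with -0.91 between the controls and -1.27 between the mutants. Rtn4 differed by 0.27 (SE 0.22, edgeR adjusted p = 0.376) and did not pass. Over the 14 markers of mature olfactory neurons, the median log2 difference of group 2 from group 1 was -1.45. The plot of both contrasts shows Rtn4rl1 and Lingo1 lower on both axes by similar amounts. The call for Rtn4rl1 and Lingo1 was lost without control 1, at -0.62 and -0.58 (edgeR adjusted p = 0.596 and 0.55), and without mutant 2, at -0.63 and -0.55 (edgeR adjusted p = 0.333 and 0.34), both in models with no genotype term.

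**Figure D2:**
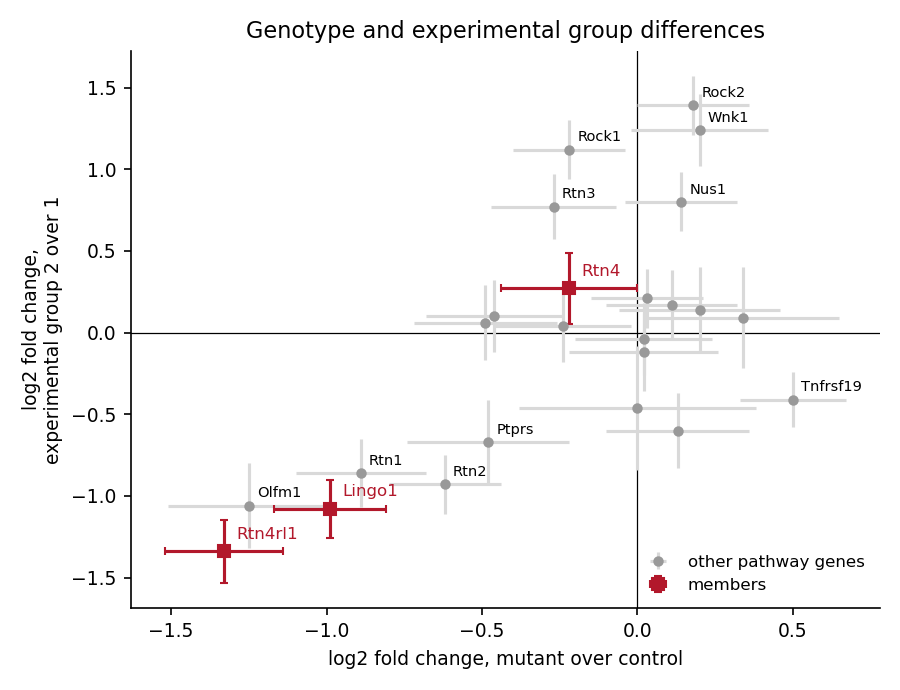
Log2 fold change of mutant over control (x axis) against that of experimental group 2 over group 1 (y axis), with bars of 1 SE, for Rtn4rl1, Lingo1 and Rtn4 (red squares) and other pathway genes (grey circles). Mag, Omg, Lgi1 and Bai3, which had few counts, are left out. Rtn4rl1 (-1.33 and -1.34) and Lingo1 (-0.99 and -1.08) lie at the lower left beside Olfm1, Rtn1 and Rtn2, and Rtn4 (-0.22 and 0.27) lies near the centre.

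The levels of Rtn4rl1 and Lingo1 varied over the samples in the order of Omp, the defining marker of mature olfactory neurons. The marker list was chosen with earlier results of these data known, so calls within it are a description. All 14 markers of mature olfactory neurons were called lower in mutants, where 4.3% of all tested genes were. Their median log2 fold change was -1.35, where that over all tested genes was -0.01. Omp had 9434, 3207, 5580 and 907 CPM in control 1, control 2, mutant 1 and mutant 2. Per 1000 reads of the 14 markers, Rtn4rl1 had 5.63 and 6.1 counts in controls 1 and 2 and 5 and 6.65 in mutants 1 and 2. On that scale Rtn4rl1 was below its control in group 1 and above it in group 2. Lingo1 had 4.19, 5.08, 4.39 and 7.55 counts per 1000 marker reads, slightly above its control in group 1 and further above it in group 2. No interval was computed for these ratios, and each comparison rests on 1 mutant and 1 control, so their directions are a description. Per 1000 reads of Omp alone, Rtn4rl1 had 12.8, 17.9, 11 and 20.8 counts, while Rtn4 ranged from 27.9 in control 1 to 306 in mutant 2. The part of mature neuron content in the differences of Rtn4rl1 and Lingo1 was not tested.

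Other cell type markers were read in the same way. Over all tested genes, 4.3% were called lower in mutants and 1.28% higher. Of 10 markers of immature neurons, 1 was called lower and 0 higher, with a median of -0.24 and a summed level of 2217 to 3169 CPM over the samples. Of 7 progenitor markers, 0 were called lower and 4 higher, with a median of 0.81, and their sum was 254 and 233 CPM in controls and 412 and 443 CPM in mutants. Among 5 horizontal basal cell markers, 1 was higher, with a sum of 1246 to 1864 CPM in controls and 1674 to 2797 CPM in mutants. Sustentacular cell markers gave 0 calls among 7, with 4094 and 5290 CPM in the samples of group 1 and 11631 and 13846 CPM in those of group 2. Leukocyte markers gave 0 calls among 9 and summed to 210 to 705 CPM. Of the 8 tested among 9 markers of glia and myelin, 1 was lower. The sum of the 9 was 203 to 286 CPM, with the oligodendrocyte marker Mog at 0 in a sample. Stromal and endothelial markers gave 2 lower calls among the 6 tested of 8, with 679 and 404 CPM in group 1 and 95.5 and 79.2 CPM in group 2, and the haemoglobin genes Hba-a1 and Hbb-b1 were at 0 in a sample. The part of these cells in the values of the 5 genes was not tested.

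**Figure D3:**
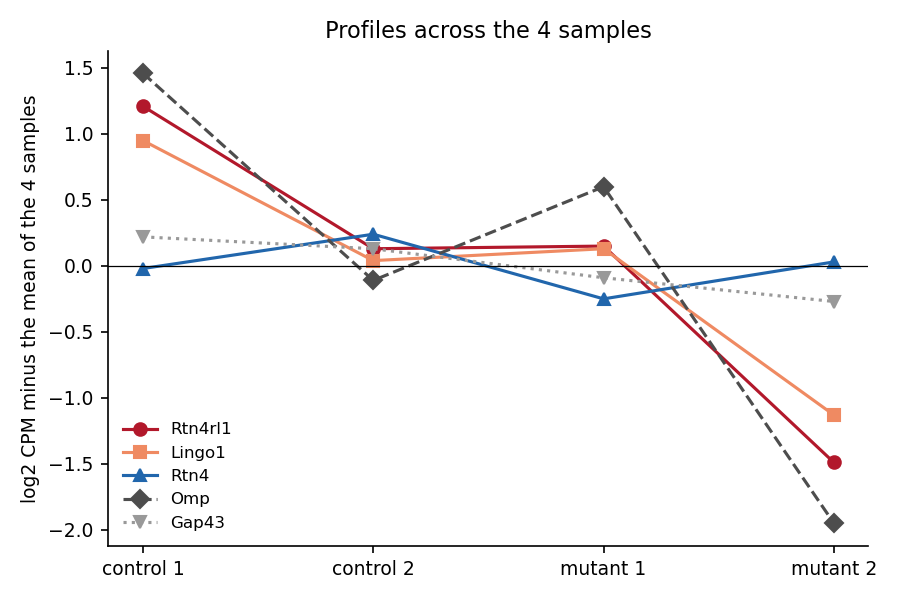
Log2 CPM minus the mean of the 4 samples (y axis) for Rtn4rl1, Lingo1, Rtn4, the mature neuron marker Omp and the immature neuron marker Gap43 in each sample (x axis). Lines only join the points of 1 gene. Rtn4rl1 and Lingo1, like Omp, are highest in control 1 and lowest in mutant 2, but they span a narrower range. Rtn4 stays within 0.25 of its mean.

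For each of the 3 tested genes, the genes with the most similar profile were found by the Euclidean distance between log2 CPM values centred on the 4 samples. Nearest to Rtn4rl1 were Cnga2 (distance 0.0619), a subunit of the olfactory cyclic nucleotide-gated channel, S100a3 (0.0814), a calcium-binding protein, and 6430548M08Rik (0.162). Cnga2 had 1395, 681, 757 and 227 CPM in control 1, control 2, mutant 1 and mutant 2. Within a distance of 0.5 of Rtn4rl1 lay 177 of 15437 other tested genes (1.15%). Lingo1 was among them at 0.446, with 131 genes nearer. Omp lay further off, at 0.739 from Rtn4rl1, with 427 genes (2.77%) nearer. The distance between Omp and Lingo1 was 1.08, with 2613 genes (16.9%) nearer to Lingo1.

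Nearest to Lingo1 were Eno2 (0.0144), the neuronal enolase, Fam89a (0.0273) and 4922501L14Rik (0.0611), and 433 genes (2.8%) lay within 0.5. Eno2 had 38.6, 20.9, 23.4 and 9.17 CPM. Among the nearest to Rtn4 were C2cd3 (0.0123), which encodes a centriole protein, and Mex3c (0.0302), an RNA-binding ubiquitin ligase. Its flat profile was shared widely, with 3746 genes (24.3%) within 0.5. These distances rest on 4 samples and are descriptions.

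Upstream windows were then examined for the genes that differed in profile. The RefSeq promoter table used here (GRCm38.p6) was matched for 4 of the 5 genes, without Rtn4rl1. It gave 7 windows of 250 bases before a start, of which 3 overlap an exon and are described but not printed. A window is shown for Lingo1, lower in mutants, and for Rtn4, which was not called, with the GC box (GGGCGG on either strand) in capitals.
Lingo1, chr9:56635649-56635898, minus strand: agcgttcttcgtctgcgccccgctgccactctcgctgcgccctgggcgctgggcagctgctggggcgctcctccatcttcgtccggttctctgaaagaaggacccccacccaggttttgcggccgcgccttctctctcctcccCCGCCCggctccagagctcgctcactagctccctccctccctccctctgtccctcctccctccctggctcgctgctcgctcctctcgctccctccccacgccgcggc
Rtn4, chr11:29692648-29692897, plus strand: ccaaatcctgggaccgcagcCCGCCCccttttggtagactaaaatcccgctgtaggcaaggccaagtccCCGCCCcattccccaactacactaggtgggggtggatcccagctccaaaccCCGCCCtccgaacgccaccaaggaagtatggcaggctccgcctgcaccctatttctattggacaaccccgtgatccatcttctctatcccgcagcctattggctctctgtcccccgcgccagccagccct
The Lingo1 window shown lies before an internal start, while that of Rtn4 lies before its first start. The Lingo1 window held 1 GC box and had 70.4% G and C, with an observed to expected CpG ratio of 0.818. At the first start of Lingo1 (chr9:56796311-56796560), the window held 1 GC box, with 72.8% G and C and a CpG ratio of 1.03. The Rtn4 window shown held 3 GC boxes and had 61.2% G and C, with a CpG ratio of 0.571. The windows at later starts of Rtn4 differed from each other. That at chr11:29693524-29693773 held 1 GC box, with 76.8% G and C and a CpG ratio of 0.845, and that at chr11:29718313-29718562 held 0 GC boxes, with 39.2% G and C and a CpG ratio of 0.105. The window of Rtn4r, the receptor gene close to the floor (chr16:18127392-18127641, plus strand), held 7 GC boxes, had 77.2% G and C and a CpG ratio of 1.09. For Rtn4rl2 (chr2:84886693-84886942, minus strand) these were 2 GC boxes, 73.6% and 0.867. Over 32851 windows of this length, 32.7% held a GC box, and the medians were 52.4% G and C and a CpG ratio of 0.373. No window of the 4 genes held TAATTA, a homeodomain core in 4.84% of windows, or TATAAA, in 12.4%, each on either strand, nor the palindromic consensus site of the EBF factors of olfactory neurons, which is in 0.779%. A match or its lack describes these letters in this window only.

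To place the 5 genes in their pathway, 30 other genes were examined. They are ligands, partners and signalling genes of the Nogo receptors, an antagonist, other receptors, and 3 reticulon genes related to Rtn4. In all, 25 were tested. Of these, 3 were lower in mutants (Olfm1, Rtn1 and Rtn2) and 0 were higher by edgeR's likelihood-ratio test, where 4.3% of all tested genes were lower and 1.28% higher, and the median log2 fold change was -0.00 where that over all tested genes was -0.01. By unadjusted p under 0.05, 5 were lower and 1 was higher. edgeR's quasi-likelihood test and DESeq2 likewise called 3 lower and 0 higher, but DESeq2 called Ptprs, a receptor phosphatase for proteoglycans, in place of Rtn2. Without experimental group in the model, and in the fits without any 1 library, which also lacked that term, 0 of the 25 passed (edgeR adjusted p = 1 for Olfm1, Rtn1 and Rtn2 with all 4 samples). The plot of ratios by experimental group gives the tested genes by role.

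**Figure D4:**
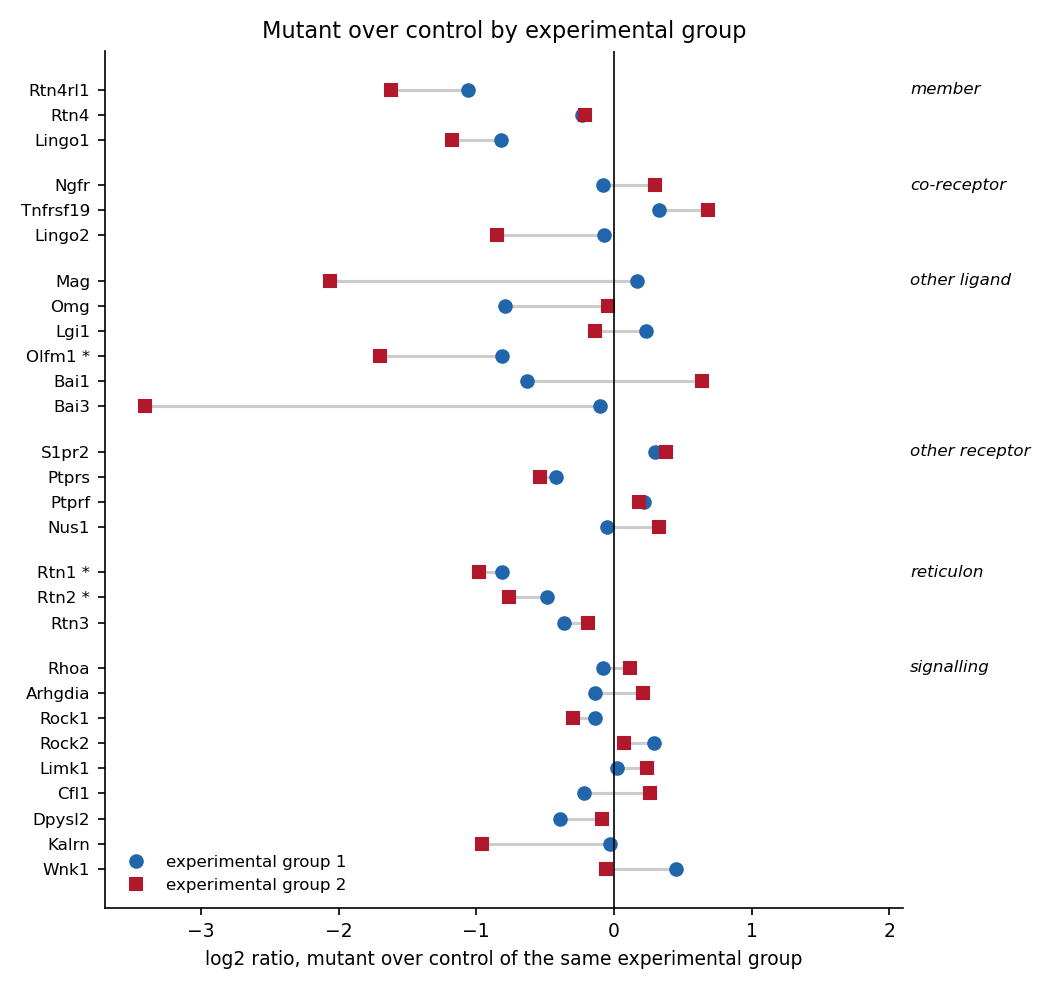
Log2 ratio of mutant over control within experimental group 1 (blue circles) and group 2 (red squares) for Rtn4rl1, Rtn4 and Lingo1 and the 25 other pathway genes tested, by role. Asterisks mark pathway genes past the threshold for genotype. Rtn4rl1 lies at -1.06 and -1.62 and Lingo1 at -0.82 and -1.18. The widest spreads, in Mag and Bai3, belong to genes with 9 and 2 counts in mutant 2.

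Among other partners of the receptors, 3 of 5 co-receptor genes were tested and 0 passed. Tnfrsf19, which encodes TROY and can take the place of p75, was the most abundant per length. It had 63.1 and 42.2 CPM in controls 1 and 2 and 84.5 and 68.6 CPM in mutants 1 and 2. Its log2 fold change was 0.50 (SE 0.17, edgeR adjusted p = 0.0644), higher than the control in both groups but not past the threshold. It passed with library totals alone (edgeR adjusted p = 0.0312) and with background subtracted from mutant 1 (edgeR adjusted p = 0.0453).

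Of 7 other ligands, 6 were tested and Olfm1 fell. Olfm1, a secreted olfactomedin protein of neurons that binds NgR1, was the most abundant ligand of this list per length. It had 411 and 271 CPM in controls 1 and 2 and 251 and 84.2 CPM in mutants 1 and 2. The log2 fold change was -1.25 (SE 0.26, edgeR adjusted p = 0.000248), with -0.81 in group 1 and -1.70 in group 2. Mag and Omg, which encode the other inhibitory ligands of myelin, were sparse, with 9 to 63 and 10 to 54 counts per sample. Crtac1, a secreted antagonist of the receptor, had 3, 0, 8 and 2 counts in control 1, control 2, mutant 1 and mutant 2 and was not tested.

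Among the relatives of Rtn4, 2 of 3 reticulon genes fell, where 4.3% of all tested genes were called lower. Rtn1, the neuronal reticulon, had 366 and 216 CPM in controls 1 and 2 and 223 and 111 CPM in mutants 1 and 2, and its log2 fold change was -0.89 (SE 0.21, edgeR adjusted p = 0.0019). Rtn2 had 76.4 and 44.1 CPM in controls 1 and 2 and 57.9 and 26.4 CPM in mutants 1 and 2, and its log2 fold change was -0.62 (SE 0.18, edgeR adjusted p = 0.0136). Leaving out 1 library at a time, with no term for experimental group, moved the fold change of Rtn2 between -1.23 and -0.11, of Rtn1 between -1.43 and -0.42, and of Olfm1 between -2.05 and -0.50. Rtn2 did not pass under DESeq2 (adjusted p = 0.0922). Rtn3 had -0.27 (SE 0.20, edgeR adjusted p = 0.583), close to the -0.22 of Rtn4. Olfm1, Rtn1 and Rtn2 were also lower in experimental group 2 than in group 1 (edgeR adjusted p = 0.000523, 0.000557 and 3.36e-06), as were Rtn4rl1 and Lingo1.

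No other receptor and no signalling gene passed for genotype, with 0 of 4 and 0 of 9 tested. Ptprf, a receptor phosphatase related to the proteoglycan receptors, was the most abundant other receptor per length. It had 648, 729, 805 and 837 CPM in control 1, control 2, mutant 1 and mutant 2, and its log2 fold change was 0.20 (SE 0.26, edgeR adjusted p = 0.818). Cfl1, the actin-severing cofilin at the end of the RhoA pathway, had 366, 287, 335 and 347 CPM in the same order, and its log2 fold change was 0.02 (SE 0.24, edgeR adjusted p = 0.991).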

How the data were processed

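Cells of 1 mouse per sample were sorted, ribosomal RNA was depleted, and libraries were sequenced as single-end reads of 50 bp. The deposited files give raw counts of reads by gene symbol. The authors removed ribosomal reads with Bowtie2 and aligned the remainder to mm10 with TopHat2, then made the counts with HTSeq (mode intersection-nonempty). The submitters' processing notes name Bowtie2 2.0.6 and TopHat2 2.0.7. The gene annotation used for counting is not given in the sources used here.

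Each file listed 23337 gene symbols and 5 tally lines, and the latter entered neither library sizes nor tests. Genes over 1 CPM in at least 2 samples (15438) were fitted in edgeR 4.0.16 (R 4.3.3) with TMM factors. The negative binomial model had terms for genotype and experimental group, as in the study's methods. Each coefficient was tested by the likelihood-ratio test with Benjamini-Hochberg adjustment over all tested genes and a threshold of 0.05. SE are Wald errors. Ratios within an experimental group use log2 CPM with a prior count of 2 and rest on 1 mouse each. Scripts were tested on simulated data.

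The labels state that samples of an experimental group share parents, sex, age, treatment and handling, and the study's methods call them littermates, so numbers pair the samples. Across genes, the deviations from genotype means of samples with the same number had r = 0.522, and genes are not independent replicates. Chi-square per degree of freedom between samples was 47 to 278, and each was kept as a separate library. Since 2 mice against 2 allow no permutation p under the threshold, tests rest on the model.

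Gene lengths, positions and coding sequences are from GENCODE M21 (GRCm38, the mm10 build), with a length for 97.94% of symbols. Upstream windows are from RefSeq. Pirb was matched through a RefSeq synonym (Lilrb3). The named pathway genes are those past the threshold for genotype, the most abundant per length in each role, and a few others that were chosen after their values were seen (Lmnb1, Krt5, Cyp2g1, Gap43, Mag, Omg, Bai3, Lgi1, Rtn3 and Ptprs). For each tested gene of the set, the 3 nearest profiles are named, except for 1 gene that is not reported here. Members and lists were chosen with earlier results of these data known. Intervals and the floor of 3 counts cover counting error only, because the reads carry no molecular identifiers.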

Additional observations from a re-analysis of the deposited data

Results flagged for a closer look

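Cfl1, the cofilin gene of the RhoA pathway, had a log2 ratio of mutant over control that was -0.22 in group 1 but 0.26 in group 2, so that the only mutant and control pair of each experimental group lay on opposite sides of 0. The difference was not tested. Other tested pathway genes also had opposite signs in the 2 groups, some with a wider gap, so this is not particular to Cfl1.

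In mutant 1, 39.41% of uniquely aligned reads lay outside genes, above control 1 (23.76%) and control 2 (24.88%). These reads enter no comparison above.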

How the results depend on the processing

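Genotype values of the 5 genes are ranges and counts only, because the set was chosen with that contrast known. With all 4 samples, block or not, the log2 fold change was -1.33 to -1.22 for Rtn4rl1, -0.99 to -0.93 for Lingo1 and -0.22 to -0.16 for Rtn4. The quasi-likelihood test called 115 genes higher in mutants in place of 197. With library totals only and with background subtracted from mutant 1, 1 pathway gene was called higher, Tnfrsf19. With no replicate block, 0 genes passed as lower and 6 as higher by edgeR's likelihood-ratio test (189 lower and 159 higher at an unadjusted p under 0.05), 0 members and 0 pathway genes were lower (1 and 0 unadjusted), and 2454 genes were called by experimental group in place of 4885. Leaving out each library in turn, with no block, gave 0 to 5 genes lower, 3 to 33 higher, 0 members and 0 pathway genes lower, 458 to 2318 genes by experimental group, and 0 to 2 members by experimental group, with 0 of them without control 1 and without mutant 2. Such fits assume that a lone sample varies like the other group. Log2 fold changes by genotype were then -2.27 to -0.57 for Rtn4rl1 and -1.71 to -0.40 for Lingo1. Adjusted p for the experimental group difference ranged from 7.31e-11 to 0.0437 for Rtn4rl1, 4.76e-08 to 0.0398 for Lingo1 and 0.15 to 0.678 for Rtn4 with all 4 samples, the highest being those without the block. For genotype it ranged over the alternatives from 1.33e-07 to 1 for Olfm1, 6.39e-07 to 1 for Rtn1, 0.0142 to 1 for Rtn2 and 0.0312 to 1 for Tnfrsf19. Depth limits Rtn4r and Rtn4rl2, for which no difference between genotypes was detectable. The cause of these shifts was not tested.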

Other observations

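Of the 25 tested genes of the pathway, 11 were called by experimental group, 6 lower and 5 higher in group 2, where 31.6% of all tested genes were called. Olfm1, Rtn1 and Rtn2, which passed for genotype, were among the lower ones. Rtn3 was higher in group 2 by 0.77 (edgeR adjusted p = 0.000917), opposite in sign to Rtn1 and Rtn2. By the stated design, parents, age, sex and treatment differ together between the groups. Sample preparation and sequencing are described as the same within a group, and none of these can be told apart.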
